A study of Homo sapiens with 6 samples.

Results

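The genes for the proteins of the cytosolic ribosome were examined in cells of LNCaP, a long-established line from a human prostate cancer that responds to androgen. A gene was a member if its symbol was RPL or RPS followed by a number, with a further letter or number allowed, or if it was RPLP0, RPLP1, RPLP2 or RPSA, and the RPS6K kinases were left out. This gave 82 of the 16000 genes of the deposited table, 50 of the large and 32 of the small ribosomal subunit. The cells had been stained with ALDEFLUOR, a fluorescent substrate that reports aldehyde dehydrogenase activity, and sorted. ALDH high cells were the 10% with the strongest signal and ALDH low cells the 10% with the weakest. Each group had 3 samples, all from LNCaP kept in RPMI-1640 with 10% serum (FBS), and no treatment is listed. How long after the sort RNA was taken is not stated in the sources used. The labels do not call a group's samples separate sorts or cultures, so a p-value measures only the spread between these samples, which may be technical.

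Ribosomes translate mRNA into protein and consist of a small subunit, which reads the mRNA, and a large subunit, which joins the amino acids. The many proteins of a ribosome are needed in matched amounts, and most of their mRNAs start with a C followed by a run of pyrimidines, the 5′ terminal oligopyrimidine (TOP) tract. The growth kinase complex mTORC1 and the RNA-binding protein LARP1 control the translation of TOP mRNAs through that tract, so the level of such an mRNA and the amount of protein made from it can differ.

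Poly(A) RNA was sequenced and each value below is a read count divided by the size factor of its library, called a normalized read. The libraries held 23817310 to 30617873 recovered reads. They did not fall together by group: by a chi-square statistic per gene, ALDH high 1 differed as little from ALDH low 2 (5.25) as from ALDH high 3 (5.25), ALDH high 3 and ALDH low 2 gave 9.88, and every other pair of libraries gave 41.3 to 89.8. KLK3, the prostate-specific antigen gene of luminal prostate cells, lay between 78309 and 101683 normalized reads in all 6 libraries. Of 6 leukocyte markers only CD68 was among the listed genes, at a summed level of 16.4 to 32.0 normalized reads in ALDH high, against 19.9 to 27.9 in ALDH low libraries. Of 10 fibroblast and endothelial markers 3 were listed, with summed levels of 1956 to 2086 in ALDH high, against 1267 to 1804 in ALDH low libraries. Their part in the results below was not tested.

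Ribosomal protein mRNA was somewhat less abundant in ALDH high than in ALDH low cells on average, but no gene's difference passed the test against the spread between libraries. On the log2 scale of normalized reads plus 1, the difference of ALDH high minus ALDH low ran from −0.61 for RPS27L to −0.02 for RPLP2. All 82 differences lay below 0 with the authors' size factors, while 78 of 82 did so when libraries were scaled by their total counts and 65 of 82 when they were scaled by spike-in reads. Among all genes 47.7% lay below 0. The median difference was −0.23 for the large subunit, −0.30 for the small subunit and 0.02 for all 16000 genes. Spike-in scaling moved the median of all genes to 0.15, and relative to all genes the members' median was −0.26 under both scalings. In bulk RNA, fewer cells with high levels and less mRNA in each cell cannot be told apart.

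With limma, 0 of 82 members passed an adjusted p of 0.05, against 0% of all genes, and the smallest adjusted p of a member was 0.984. At an unadjusted limma p below 0.05 stood 2 members, RPL22L1 (0.0268) and RPS27L (0.0262), where the background over all genes was 2.11%. The quasi-likelihood test of edgeR placed 4 members below that unadjusted level, against 2.23% of all genes, DESeq2 placed 10, against 2.22%, and both called 0 members after adjustment. A p-value below 0.05 was listed for 10 members in the authors' deposited table, against 2.22% of all genes with a p-value there, and the smallest adjusted value of a member was 0.998. Only 2 members, RPL5 and RPS27L, were lower in all 3 ALDH high than in all 3 ALDH low libraries, with a background of 3.32%, and 0 were higher in all 3, with a background of 3.67%. The 95% intervals hold for the authors' size factors and assume a common spread in both groups, although the spread was wider within ALDH low (below). Of these intervals 80 of 82 included 0, and 77 of 82 lay wholly within a 2-fold change in either direction.

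**Figure D1:**
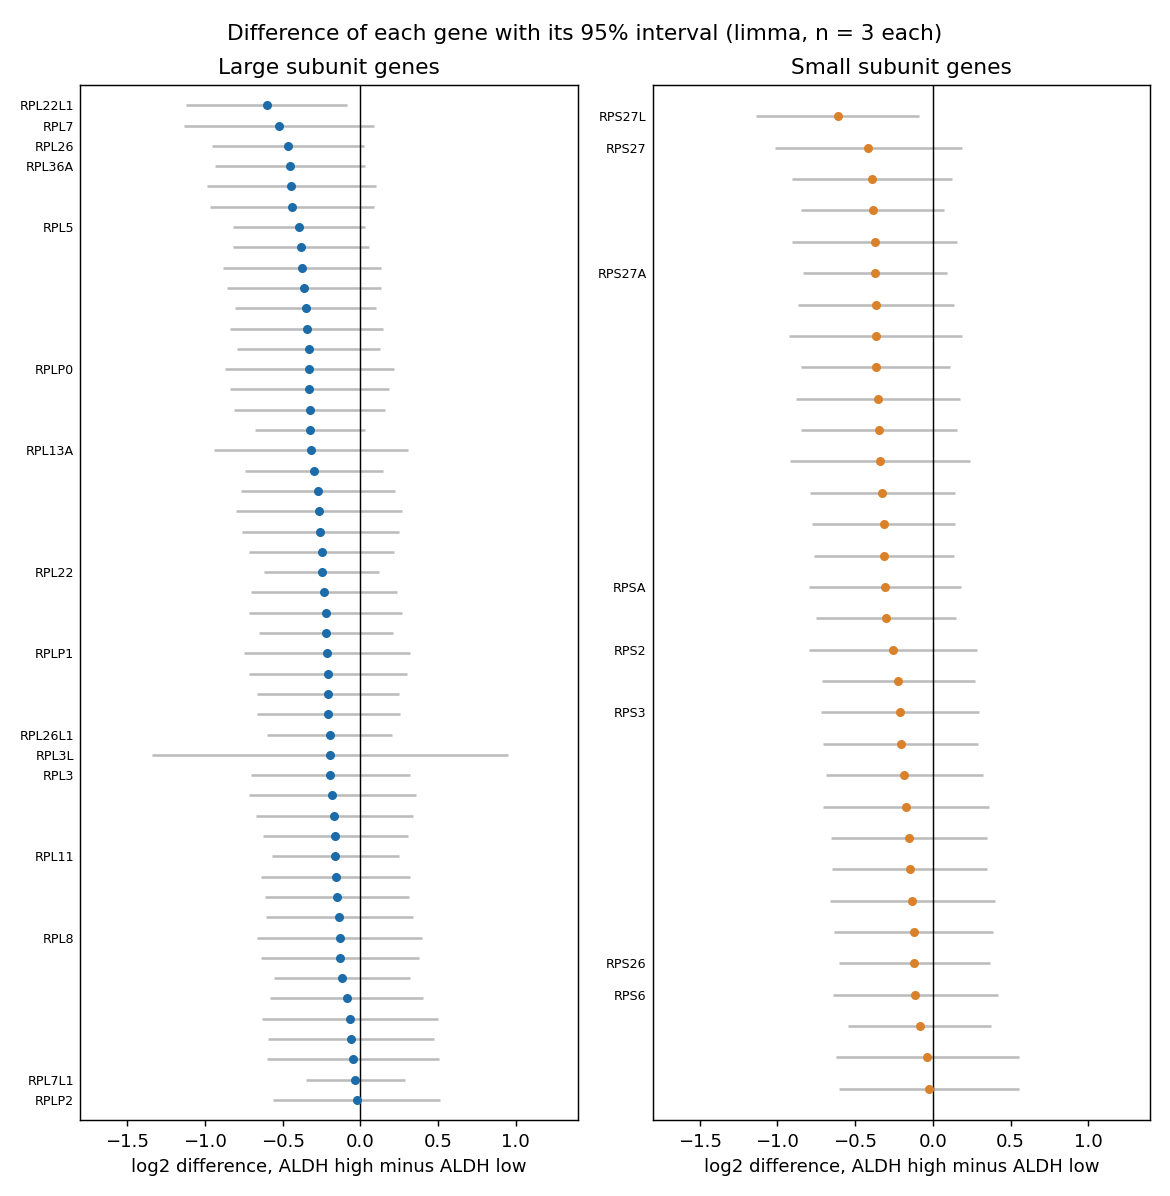
Each row is a ribosomal protein gene (names are given for genes with values in the text), the point its difference of ALDH high minus ALDH low in log2(normalized reads + 1), and the line its 95% interval from limma with 3 libraries per group. All 82 points lie left of 0 with the authors' size factors (65 with spike-in scaling), and 80 of the 82 intervals cross 0.

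The members' levels varied among libraries of a group as well as between the groups. An ALDH high library was the highest of the 6 for 0 members, ALDH low 1 for 19 and ALDH low 3 for 63. The lowest library was ALDH high 2 for 47 members and ALDH low 2 for 27, so a library of each group lay at the bottom. Relative to each gene's own mean over the 6 libraries, the median member stood at −0.14, −0.26 and 0.01 log2 units in ALDH high 1, 2 and 3, against 0.16, −0.21 and 0.47 in ALDH low 1, 2 and 3. The ALDH low libraries were thus spread more widely than the ALDH high libraries: the SD within ALDH low exceeded that within ALDH high for 81 of 82 members, with a median SD of 0.17 within ALDH high and 0.38 within ALDH low. This was not particular to the members. Over all genes the chi-square statistic was 82.1, 82.59 and 73.82 between ALDH low libraries, against 50.68, 5.245 and 51.95 between ALDH high libraries. Without ALDH low 3 the median differences were −0.09 for the large and −0.14 for the small subunit, 54 of 82 members lay below 0, and 0 had an unadjusted limma p below 0.05 (background 1.76%). Without ALDH low 2 they were −0.41 and −0.46, and 36 members had an unadjusted limma p below 0.05 where the background was 10.6%, still with 0 called. Leaving out both libraries numbered 2 gave −0.35 and −0.37, with 0 members among the 107 genes then called (0.669% of all genes).

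**Figure D2:**
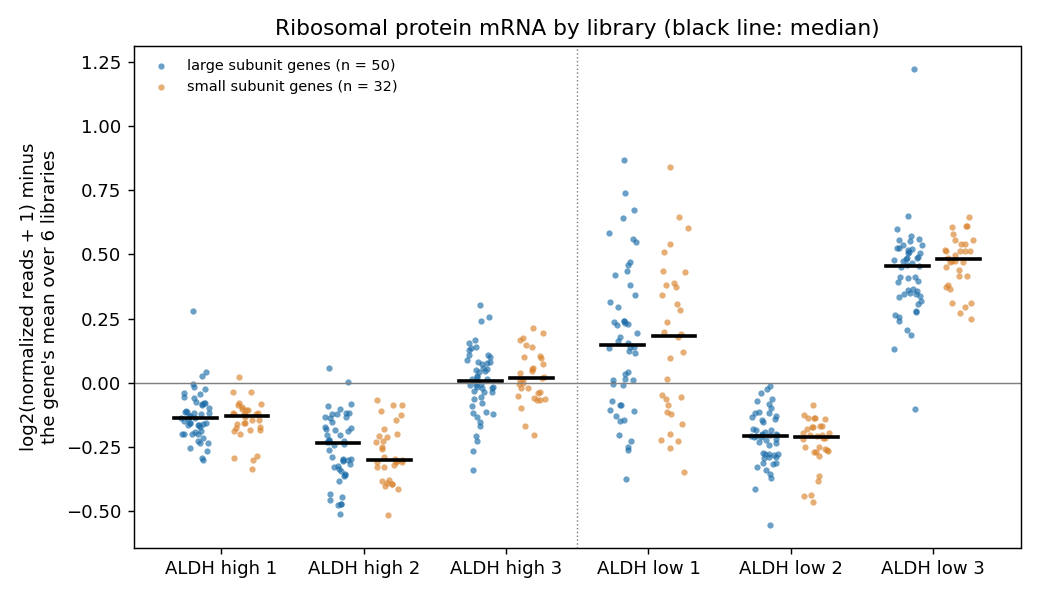
Each point is a ribosomal protein gene in a library, as log2(normalized reads + 1) minus the gene's mean over the 6 libraries, and black lines are medians of the 50 large and 32 small subunit genes. The members move as a block by library: the medians of both subunits are lowest in ALDH high 2 and ALDH low 2 and highest in ALDH low 3.

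Ribosomal proteins are among the most abundant mRNAs of these cells. By mean normalized reads, 47 of the 100 highest genes were members, and 81 of 82 had a mean of at least 100. Between the highest, RPL13A, with a mean of 222746 normalized reads, and the lowest, RPL3L, with 22.8, every other member averaged more than 1000. Levels of different genes were compared per 1000 bases of coding sequence, since coding sequences ran from 75 bases in RPL41 to 1281 in RPL4. On that scale the median was 75836 normalized reads for large and 87881 for small subunit genes. RPL13A stayed the highest at 365758, followed by RPL41 at 290383 and RPL8 at 163020 (RPL41 was chosen after its value was seen). Reads of untranslated exons were counted too, so a short coding sequence in a longer transcript raises this value. RPL41 has 75 coding bases in a transcript of 699, and by its mean of 21779 normalized reads it ranked only 66 of the 82 members. The lowest were RPL3L at 18.7, RPL26L1 at 5152, RPS27L at 6788, RPL7L1 at 9248, RPL17 at 17778, RPL22L1 at 21144 and RPL36A at 23960 (RPL17 chosen after its value was seen). Of these, 5 are paralogs of a standard subunit gene, while RPL17 and RPL36A overlap annotated readthrough genes. How the counting divided reads there was not tested, so these 2 levels are uncertain.

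The order of the members was nearly the same in every library: Pearson's r of log2 levels across the 82 members was 0.970 to 0.999 between pairs of libraries, a description over genes that share each library's depth and composition. A member's median SD over the 6 libraries was 0.30 log2 units, and 0.14 once the mean over members was taken off each library. The median SD of the 894 other genes with a mean of at least 5000 was 0.21. Nothing was taken off the libraries for that value, so it compares with the 0.30 of the members and not with the 0.14.

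Because the TOP tract is the shared sequence feature of these genes, the first transcribed bases of some of the members described below are shown, read from RefSeq promoter sequences (GRCh38.p14) on the strand of the gene. Each line holds the 15 bases before the annotated start and the first 15 bases of the transcript, with capitals for a tract that begins with C at the first transcribed base and goes on with at least 4 letters that are C or T. The first 6 are standard subunit genes with the tract and the next is a paralog with it. No tract was found at the listed start of the standard subunit genes RPL3 and RPS26 and of the last 3, which are paralogs. RPL3 does start with C and a run of pyrimidines, but the run is just short of the minimum.
RPL13A, chr19:49487593-49487622, plus strand: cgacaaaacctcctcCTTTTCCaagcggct
RPLP0, chr12:120201097-120201126, minus strand: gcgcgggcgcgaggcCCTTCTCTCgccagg
RPL41, chr12:56116618-56116647, plus strand: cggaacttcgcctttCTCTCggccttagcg
RPL26, chr17:8383179-8383208, minus strand: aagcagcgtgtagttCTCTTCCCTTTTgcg
RPL22, chr1:6199581-6199610, minus strand: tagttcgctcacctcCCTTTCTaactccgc
RPS27, chr1:153990747-153990776, plus strand: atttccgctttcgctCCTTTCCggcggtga
RPL22L1, chr3:170870181-170870210, minus strand: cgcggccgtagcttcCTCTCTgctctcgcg
RPL3, chr22:39319609-39319638, minus strand: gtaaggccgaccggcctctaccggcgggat
RPS26, chr12:56041903-56041932, plus strand: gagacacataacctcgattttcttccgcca
RPL26L1, chr5:172958714-172958743, plus strand: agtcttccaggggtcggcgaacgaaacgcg
RPL7L1, chr6:42879601-42879630, plus strand: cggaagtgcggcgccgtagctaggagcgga
RPS27L, chr15:63157463-63157492, minus strand: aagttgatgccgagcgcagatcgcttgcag

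A promoter sequence was matched by symbol for 66 members, and 47 of them (71.2%) had the tract at a listed start, 29 of 41 in the large and 18 of 25 in the small subunit. Of the 19 without it, 3 are paralogs of a standard subunit gene and 16 are not. The tract stood at a listed start of 7.03% of 9935 other protein-coding genes of the table and in 4.07% of all 35116 promoter sequences. Only the transcribed strand at the first base was read, so a tract that begins a few bases away was not counted, and neither was a run shorter than the minimum. The median difference of ALDH high minus ALDH low was −0.26 for the 47 members with a tract and −0.21 for the 19 without.

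The stalk of the large subunit, built from RPLP0, RPLP1 and RPLP2, calls the translation factors to the ribosome. RPLP0, its base, had 100545, 103912 and 105272 normalized reads in the ALDH high libraries, against 130770, 98989 and 167868 in the ALDH low libraries. The groups overlapped through ALDH low 2, and the difference was −0.33 (95% interval −0.87 to 0.22). RPLP1 counted 25138, 27535 and 31978 in ALDH high, against 32905, 23356 and 44970 in ALDH low libraries, a difference of −0.21 (−0.75 to 0.32). RPLP2 showed the smallest difference of all members, −0.02 (−0.56 to 0.51), with 28673, 29126 and 38212 in ALDH high, against 29220, 24992 and 45722 in ALDH low libraries. All 3 stalk genes were highest in ALDH low 3 and lowest in ALDH low 2.

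RPL5 and RPL11 bind a small ribosomal RNA together and enter the large subunit as a preformed complex. RPL5 was 1 of the 2 members without overlap between groups, with 26158, 25086 and 25334 normalized reads in the ALDH high libraries, against 38115, 26348 and 37614 in the ALDH low libraries. ALDH low 2 nevertheless lay beside the ALDH high libraries, and the difference of −0.39 (−0.82 to 0.03) had a limma adjusted p of 0.984. RPL11 had 15274, 12673 and 16470 in ALDH high against 15696, 14220 and 19914 in ALDH low libraries. Its groups overlapped, at a difference of −0.16 (−0.57 to 0.25).

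RPL3 and RPL8 reach towards the catalytic centre of the large subunit, and RPL13A is a large subunit protein also known for silencing inflammatory mRNAs in interferon-treated cells. RPL13A, at chr19:49487554-49492308 (GRCh38, plus strand), had 189271, 200077 and 195997 normalized reads in ALDH high, against 257247, 174569 and 319317 in ALDH low libraries. The ALDH high libraries lay close together between the lowest and the middle ALDH low library, and the difference was −0.32 (−0.94 to 0.31). RPL3 differed by −0.19 (−0.70 to 0.32) and averaged 119654 ± 3438 in ALDH high, against 138356 ± 26342 in ALDH low libraries (SD, n = 3 each). RPL8 differed by −0.13 (−0.66 to 0.40), with means of 119270 ± 13931 and 132107 ± 28432 in ALDH high and ALDH low libraries (SD, n = 3 each).

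The 3 most negative differences of the large subunit were those of RPL22L1, RPL7 and RPL26. RPL22L1, a paralog of the RNA-binding protein RPL22, lies at chr3:170864875-170870483 on the minus strand. It had 6966, 6808 and 7138 normalized reads in the ALDH high libraries, against 14320, 7010 and 11801 in the ALDH low libraries. ALDH low 1 and ALDH low 3 stood well above the rest, ALDH low 2 fell inside the ALDH high range, and the difference was −0.60 (−1.12 to −0.08, limma adjusted p = 0.984). RPL7 had 56494, 43148 and 51267 in ALDH high, against 109356, 51718 and 65596 in ALDH low libraries, a difference of −0.52 (−1.13 to 0.09) in which ALDH low 1 alone stood far above. RPL26, a protein near the exit of the tunnel that nascent chains leave by, differed by −0.47 (−0.95 to 0.02), with 21259, 16937 and 21448 in ALDH high, against 34817, 20180 and 28988 in ALDH low libraries.

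In the small subunit, RPS2, RPSA and RPS3 were among the genes with the highest means. RPS2, a protein at the mRNA entry, had 107256, 106839 and 102570 normalized reads in ALDH high, against 131557, 95775 and 159982 in ALDH low libraries, a difference of −0.26 (−0.80 to 0.28). RPSA, which also goes by the name laminin receptor, had 79671, 67358 and 80867 in ALDH high, against 95322, 76622 and 112452 in ALDH low libraries, a difference of −0.31 (−0.80 to 0.18). In both genes the groups overlapped because ALDH low 2 was low. RPS3, which also lines the mRNA entry, differed by −0.21 (−0.72 to 0.29).

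RPS6 is the protein that S6 kinases phosphorylate downstream of mTORC1. Its mRNA had 59089, 57898 and 68476 normalized reads in ALDH high, against 55881, 56858 and 93276 in ALDH low libraries. ALDH low 1 and 2 were the lowest of the 6 libraries and ALDH low 3 the highest, at a difference of −0.11 (−0.64 to 0.42). RPS27A, made as a fusion to ubiquitin, had 18836, 17284 and 20463 in ALDH high, against 27104, 17891 and 29678 in ALDH low libraries, a difference of −0.37 (−0.83 to 0.09). RPS26, which lies near the mRNA exit, differed by −0.12 (−0.61 to 0.37).

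RPS27L, a paralog of the zinc-binding protein RPS27, at chr15:63125872-63158021 on the minus strand, had the most negative difference of the whole family. It had 1416, 1138 and 1411 normalized reads in the ALDH high libraries, against 2915, 1420 and 1963 in the ALDH low libraries. The groups did not overlap, but ALDH low 2 was only a few reads above ALDH high 1, and the difference was −0.61 (−1.14 to −0.09, limma adjusted p = 0.984). RPS27 itself had 20504, 20958 and 26222 in ALDH high, against 40535, 18760 and 35087 in ALDH low libraries, a difference of −0.41 (−1.01 to 0.19).

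Added up, the members took 11.6%, 11.1% and 12.6% of the reads of ALDH high 1, 2 and 3, against 14.3%, 11.1% and 15.5% of ALDH low 1, 2 and 3. The means were 11.8 ± 0.754% in ALDH high, against 13.7 ± 2.27% in ALDH low libraries (SD, n = 3 each), and the two-sided exact permutation p was 0.3, where 3 against 3 cannot go below 0.1. Large subunit genes took 7.04%, 6.80% and 7.56% in ALDH high, against 8.74%, 6.78% and 9.35% in ALDH low libraries (exact p = 0.4). For the small subunit the shares were 4.59%, 4.27% and 5.003% in ALDH high, against 5.53%, 4.36% and 6.19% in ALDH low libraries (exact p = 0.3). Counting error is far smaller than these gaps, since the widest half-width of a 95% Wilson interval of such a share was 0.0108 percentage points, which covers counting error only. ALDH low 2 stood with the ALDH high libraries in both subunits.

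Other contents of the libraries moved in places with the members' shares. The share of mitochondrially encoded transcripts was 4.87%, 2.88% and 4.88% in ALDH high 1, 2 and 3, against 2.003%, 4.52% and 2.98% in ALDH low 1, 2 and 3. ALDH low 1 and ALDH low 3, the richest in ribosomal protein reads, were thus low in mitochondrial reads. So was ALDH high 2, which had the lowest share of ribosomal protein reads of the 6 libraries (11.07%). The part of the mitochondrial share in the result was not tested. With mitochondrial and spike-in reads left out of the total, the subunit shares differed in the same direction (exact p = 0.3 for each subunit). Set against the spike-in reads, the members had 18.5, 27.8 and 31.2 reads for each spike-in read in ALDH high, against 29.1, 20.1 and 34.7 in ALDH low libraries, with wide overlap (exact p = 0.7).

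The balance of the subunits was compared as a ratio within each library. The log2 ratio of small to large subunit reads was −0.62, −0.67 and −0.60 in ALDH high, against −0.66, −0.64 and −0.60 in ALDH low libraries. The means of −0.63 ± 0.04 and −0.63 ± 0.03 in ALDH high and ALDH low libraries (SD, n = 3 each) differed by 0.0021 (exact p = 1), a difference whose sign changed when single libraries were left out. Taken as the difference of the median log2 levels of the subunits, it was 0.10, 0.10 and 0.03 in ALDH high, against 0.35, 0.09 and 0.08 in ALDH low libraries. By this measure ALDH low 1 stood apart and ALDH high was lower by 0.097 (exact p = 0.6).

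Paralogs and partners were compared as ratios within a library, which no scaling between libraries can shift, over 8 pairs. RPL22L1 stood at 62.3% of RPL22 in ALDH high, against 83.1% in ALDH low cells. Percentages of this kind, here and for the other pairs, divide the group means (arithmetic) of normalized reads, so scaling can shift them. The tests used the log2 ratios within libraries. The log2 ratios were −0.72, −0.53 and −0.78 in ALDH high, against 0.01, −0.69 and −0.28 in ALDH low libraries, and ALDH low 2 again lay inside the ALDH high range (exact p = 0.2, 0.4 after Benjamini-Hochberg adjustment over the 8 pairs). RPS27L made up 5.86% of RPS27 in ALDH high, against 6.67% in ALDH low cells (exact p = 0.2, adjusted 0.4).

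For RPL7L1, a distant paralog of RPL7, the ratio ran the other way: 13.9% of RPL7 in ALDH high, against 9.47% in ALDH low cells, a log2 difference of 0.49 (exact p = 0.3, adjusted 0.4). RPL7L1 itself had 6860, 7356 and 6758 normalized reads in ALDH high, against 7901, 6991 and 6583 in ALDH low libraries, and it was the only member with its lowest value in ALDH low 3. RPL26L1 was 10.6% of RPL26 in ALDH high, against 8.50% in ALDH low cells (exact p = 0.2, adjusted 0.4). RPL36AL, which encodes the same subunit as RPL36A and is not matched by the symbol rule, was 87.6% of RPL36A in ALDH high, against 72.8% in ALDH low cells (exact p = 0.5, adjusted 0.571). RPL3L, the form of RPL3 made in heart and skeletal muscle, was at 25.1, 17.3 and 16.003 normalized reads in ALDH high, against 15.6, 13.7 and 49.3 in ALDH low libraries, too few to read a ratio from.

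The remaining 2 pairs are partners rather than paralogs of a parent. RPLP1 was 88.2% of RPLP2 in ALDH high, against 101.3% in ALDH low cells (exact p = 0.2, adjusted 0.4). RPL11 was 58.0% of RPL5 in ALDH high, against 48.8% in ALDH low cells (exact p = 0.3, adjusted 0.4). In 0 of the 8 pairs did the adjusted p pass 0.05, which 3 against 3 libraries could not reach.

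**Figure D3:**
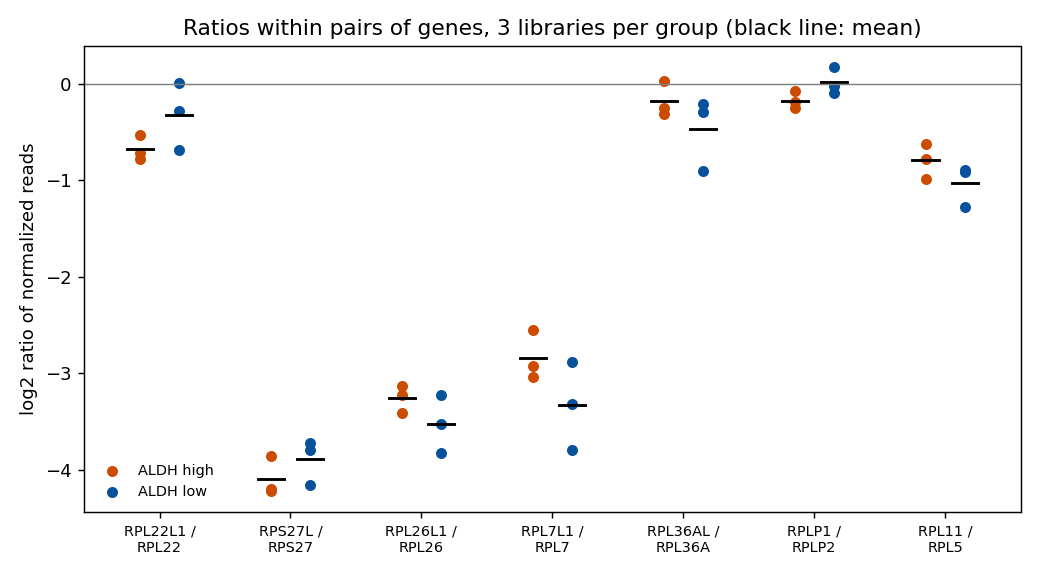
Each point is the log2 ratio of the normalized reads of a pair of genes in 1 library, with ALDH high left of ALDH low and black lines for means of 3 libraries. RPL3L over RPL3, far below the axis, is not drawn, and in all 7 pairs drawn the points of the groups overlap.

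Which members were highest in which ALDH low library went with base composition. The 19 genes highest in ALDH low 1 had a median GC content of 45.6% in their coding sequence, and the 63 highest in ALDH low 3 had 53.6%. RPL7, RPS27L and RPL22L1, the 3 members with the most negative differences, are among the poorest in GC, at 43.4%, 42.1% and 41.8%. Across the 82 members, ALDH low 1 minus ALDH low 3 correlated with coding GC content at Pearson's r = −0.61 (Spearman's rho −0.60), and across 10621 other protein-coding genes at −0.52 (−0.54). The difference of ALDH high minus ALDH low had r = 0.56 (rho 0.54) with coding GC content over the members and 0.13 (0.12) over the other genes. These are descriptions across genes, all read from the same 6 libraries. Neither the cause nor its part in single genes' differences was tested.

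**Figure D4:**
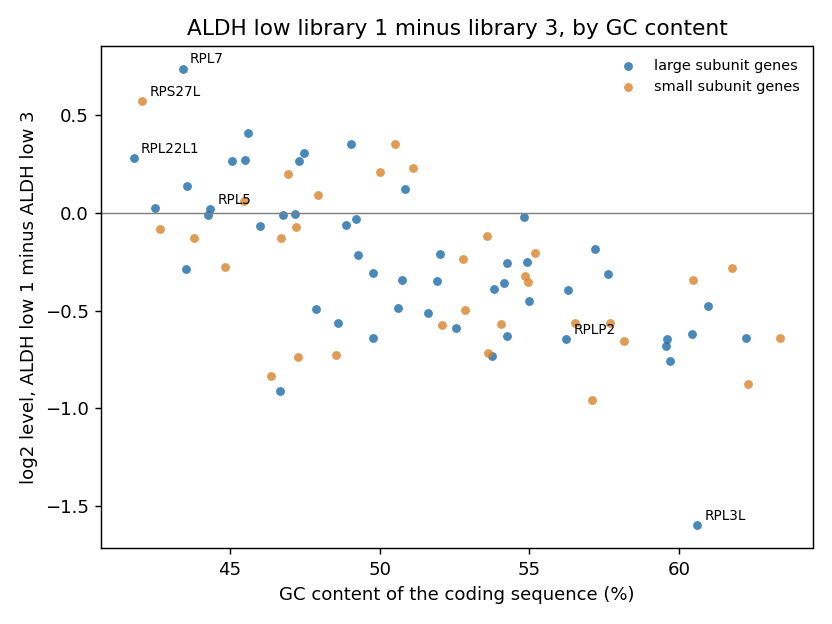
Each point is a ribosomal protein gene, with the GC content of its coding sequence in percent against its log2(normalized reads + 1) in ALDH low 1 minus that in ALDH low 3. GC-poor genes such as RPL7, RPS27L and RPL22L1 lie above 0, most GC-rich genes lie below, and r is −0.61.

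Ribosomal protein genes are short, and the median of other short genes lay below 0 too. Among 1273 other protein-coding genes with a coding sequence of up to 600 bases the median difference was −0.16 and 82.6% lay below 0. It was −0.07 above 600 and up to 1200 bases, 0.03 above 1200 and up to 2400, and 0.16 above 2400. The 57 members of up to 600 bases had a median of −0.27 and the 22 members above 600 and up to 1200 bases −0.22. In ALDH high 2 the median of the other short genes, relative to each gene's mean, was −0.20 and that of the longest 0.23, while in ALDH low 3 these were 0.25 and −0.30. With a trend on coding length and coding GC content taken out of each library, a step chosen after the data were seen, the median differences were −0.14 for the large and −0.18 for the small subunit and 73 of 82 members lay below 0, against −0.01 for all genes. The same step with transcript length and GC content left −0.23 and −0.26, with 80 of 82 below 0.

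**Figure D5:**
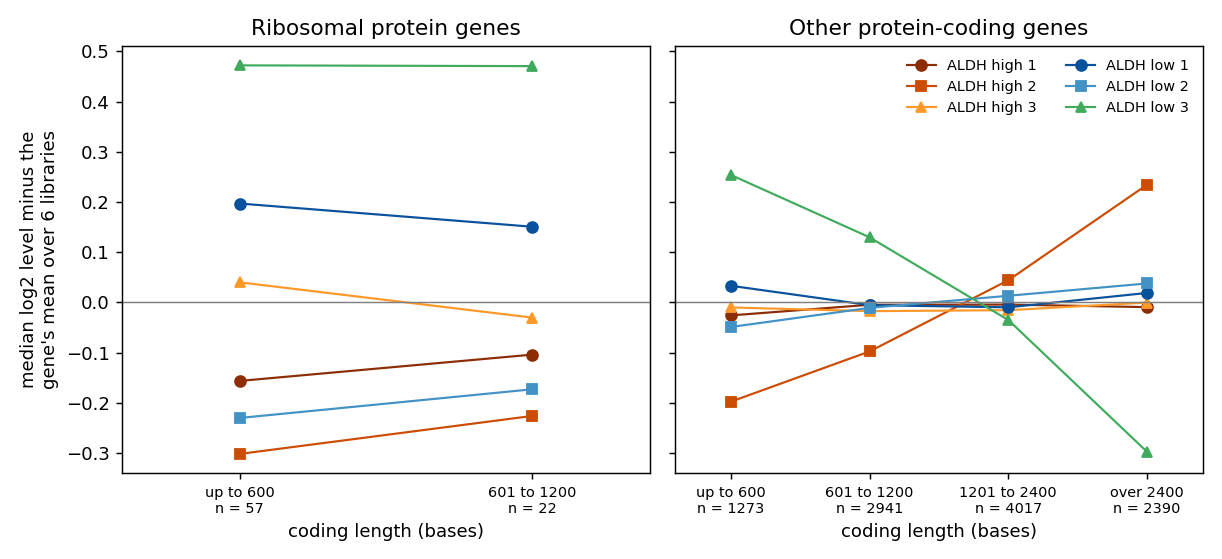
Points are medians over genes of log2(normalized reads + 1) minus the gene's mean over the 6 libraries, by coding length, for ribosomal protein genes (left) and other protein-coding genes (right); 3 members longer than 1200 bases are not drawn. Among other genes ALDH high 2 slopes up and ALDH low 3 slopes down with length, and the members of both length classes are highest in ALDH low 3.

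Processed pseudogenes are a known difficulty of this family, because a read that matches both a gene and its copy is dropped when only uniquely placed reads are counted. By symbol, 77 of 82 members had at least 1 annotated pseudogene in GENCODE 29, with a median of 9 and a maximum of 91 for RPL23A, followed by RPSA with 74. Across members the log2 level per 1000 coding bases and the log2 number of pseudogenes plus 1 had r = 0.21 (rho −0.16), a description over genes of the same libraries. The 81 pseudogene rows of the table had a median of 57.4 normalized reads, and their share of reads was 0.152%, 0.142% and 0.139% in ALDH high, against 0.197%, 0.147% and 0.190% in ALDH low libraries.

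Of the 4 subunit genes that the symbol rule does not match, 3 lay below 0, with a median of −0.18 that was 0.05 without ALDH low 3 and −0.04 with the coding trend removed. FAU, a fusion to a ubiquitin-like protein, had 14483, 14062 and 19055 normalized reads in ALDH high, against 18106, 13437 and 23540 in ALDH low libraries. Its groups overlapped, at a difference of −0.19 (−0.68 to 0.31), and limma called 0 genes of this list.

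Genes around the ribosome were described in further lists, in which limma called 0 genes. Of 35 translation initiation factors 21 lay below 0, with a median difference of −0.05, which was 0.05 without ALDH low 3. EIF3E, a subunit of the initiation factor that binds the small ribosomal subunit, differed by −0.45 (−0.93 to 0.03) and EIF4G3, a scaffold of the cap-binding complex, by 0.30 (−0.13 to 0.72). Of 13 elongation and termination factors 10 lay below 0 (median −0.10, and −0.09 without ALDH low 3). EEF1A1, the factor that brings aminoacyl-tRNA and a classic TOP mRNA, had 261492, 325106 and 271219 normalized reads in ALDH high, against 385525, 263285 and 409771 in ALDH low libraries. Its groups overlapped, at −0.28 (−0.92 to 0.35). Of 20 TOP mRNAs outside the ribosome, EEF1A1 and EIF3E among them, 13 lay below 0 (median −0.13, and −0.08 without ALDH low 3). With the coding trend removed the medians were −0.03 for initiation factors, −0.10 for elongation and termination factors and −0.08 for these TOP mRNAs. GAS5, a noncoding TOP transcript, differed by −0.28 (−0.70 to 0.13).

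Ribosome assembly factors had a median difference of −0.07, with 52 of 76 rows below 0 and 10 without overlap between groups, all lower in ALDH high (background 3.32%). That median was −0.02 without ALDH low 3 and −0.08 with the coding trend removed. RSL24D1, which takes part in building the large subunit, had 4133, 2977 and 3700 normalized reads in ALDH high, against 6490, 4400 and 4266 in ALDH low libraries. Its groups did not overlap, and the difference was −0.47 (−0.91 to −0.04, limma adjusted p = 0.984). GNL3, the nucleolar protein nucleostemin, differed by −0.35 (−0.77 to 0.07), and MDN1, a very large ATPase that remodels precursors of the large subunit, by 0.42 (−0.19 to 1.03). Of 19 genes for RNA polymerase I and its factors, which make ribosomal RNA, 15 lay below 0 (median −0.05, and 0.02 without ALDH low 3), with POLR1A, the largest subunit, at 0.40 (−0.11 to 0.92). Of 15 chaperones and importers of ribosomal proteins 10 lay below 0 (median −0.08, and −0.05 without ALDH low 3), BCCIP at −0.33 (−0.66 to 0.0011) among them. With the coding trend removed the medians were −0.04 for the RNA polymerase I genes and −0.13 for the chaperones and importers.

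Of 23 genes of mTORC1, LARP1 and the S6 kinases 10 lay below 0, close to the 47.7% of all genes. Their median of 0.05 was 0.03 without ALDH low 3 and 0.0011 with the coding trend removed. MTOR, the kinase itself, had 3037, 4573 and 3262 normalized reads in ALDH high, against 3434, 3476 and 1965 in ALDH low libraries, a difference of 0.32 (−0.22 to 0.85) in which ALDH high 2 was the highest and ALDH low 3 the lowest library. LARP1, which binds the TOP tract, had 9502, 10948 and 9627 in ALDH high, against 7003, 10434 and 7330 in ALDH low libraries, a difference of 0.30 (−0.10 to 0.70) with ALDH low 2 again beside the ALDH high libraries. Of 17 ribosome quality control genes 9 lay below 0 (median −0.01, 0.07 without ALDH low 3 and −0.07 with the coding trend removed). GCN1, a sensor of collided ribosomes with a long coding sequence, was at 0.23 (−0.20 to 0.65). GIGYF2, which represses translation of mRNAs with stalled ribosomes, was at 0.23 (−0.25 to 0.71), and EDF1, which binds collided ribosomes, at −0.13 (−0.57 to 0.30).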

How the data were processed

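Poly(A) RNA of 6 LNCaP samples was sequenced, 3 ALDH high and 3 ALDH low, grouped by their labels. The submitters' processing notes name GRCh38 as the build and list DESeq2, STAR 2.5.2b, Trimmomatic 0.36 and, in Subread 1.5.2, featureCounts. Per the labels' protocols, reads placed uniquely in exons were counted. Strandedness is not stated in the sources used, so antisense reads cannot be told apart. The authors deposited a normalized signal per gene (read counts divided by a size factor per library), a log2 fold change of ALDH low over ALDH high, and a p-value with its adjusted p-value. Values were whole multiples of a step in at least 99.99% of cases (within 0.02 of a read), so whole reads were recovered.

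The main test was limma 3.58.1 (R 4.3.3), which was fitted with a trended prior to log2(normalized reads + 1) over all 16000 genes, without a filter and with Benjamini-Hochberg adjustment at 0.05. This scale understates changes of low genes. The edgeR 4.0.16 quasi-likelihood test and DESeq2 1.42.0 ran on recovered reads. The limma, edgeR and DESeq2 fits of all 6 libraries were tested on simulated counts, and the other settings were not. The simulation used a fixed dispersion and no shared shift of genes within a library. It therefore does not measure the power or error of the fits in these data. Single values per library used two-sided exact permutation tests. GENCODE 29 gave coordinates (counted from 1), coding lengths and GC content and matched 15931 gene identifiers. Python 3.11.15 and SciPy 1.17.1 were used. For 16 members no promoter sequence was used.

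Members, lists and tests were chosen with earlier results of these data known. Named were, in each subunit, the 4 most and 2 least abundant members and the 3 most negative differences, RPL5, RPL11, RPSA, RPS6, RPS27A, the stalk genes, the genes of each pair, and up to 3 genes per pathway list with the largest absolute difference. Some genes that this rule names are not reported here.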

Additional observations from a re-analysis of the deposited data

Results flagged for a closer look

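Spike-in RNA was found that no label mentions: ERCC sequences, which are synthetic RNAs added in known amounts, took 0.487% of the reads over all libraries. They took 0.630%, 0.399% and 0.403% in ALDH high 1, 2 and 3, against 0.491%, 0.556% and 0.448% in ALDH low 1, 2 and 3, and the groups overlapped (exact permutation p = 0.8). They lie outside the comparison of genes, and a signal above 0 there is what singled them out. With libraries scaled to these reads the median difference of ALDH high minus ALDH low was −0.09 for the large and −0.17 for the small subunit. How the spike-in was dosed is not stated in the sources used.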

How the results depend on the processing

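In 17 other settings, each changing 1 choice of the limma fit except that edgeR and DESeq2 ran once each on all libraries, 0 members were called and the subunit medians were below 0. Whether replicate numbers mark pairs is not stated in the labels. Deviations of same-numbered libraries from their group means correlated at −0.46, −0.43 and 0.14 over 11506 genes. Deviations within a group sum to 0 and so depend on each other, and these values cannot decide whether the samples were paired. The fit with a replicate block called 0 members and left the medians at −0.23 and −0.30. Leaving out 1 library at a time, those medians ran from −0.41 to −0.09 for the large and from −0.46 to −0.14 for the small subunit, and the differences in share of reads from −1.91 to −0.627 and from −1.24 to −0.327 percentage points. The small to large log2 ratio ran from −0.014 to 0.023 and was −0.097 as a difference of median levels (exact permutation p = 0.6). Members above 0 numbered 17 with spike-in scaling, 4 with total-count scaling, 2 with the transcript length and GC trend removed, 9 with the coding length and GC trend removed and up to 28 (without ALDH low 3) with 1 library left out. Among the named genes, signs turned with spike-in scaling for RPL8 (0.0018), RPLP2 (0.11), RPL7L1 (0.10), RPS6 (0.022), RPS26 (0.016) and EDF1 (0.0043), with total-count scaling for RPLP2 (0.023) and RPL7L1 (0.014), and with the transcript length and GC trend removed for RPLP2 (0.014), and with the coding length and GC trend removed for RPLP2 (0.099), RPL7L1 (0.047), RPS26 (0.013), RPL36AL (0.022) and GCN1 (−0.066). With 1 library left out, differences of named genes crossed 0 for RPL8 (−0.23 to 0.037), RPLP2 (−0.20 to 0.23), RPLP1 (−0.45 to 0.018), RPL7L1 (−0.089 to 0.042), RPL3L (−0.52 to 0.37), RPS6 (−0.24 to 0.13), RPS26 (−0.26 to 0.13), FAU (−0.39 to 0.011), RPL36AL (−0.31 to 0.085), GIGYF2 (−0.024 to 0.42), EDF1 (−0.26 to 0.085) and the ratio of RPL3L to RPL3 (−0.25 to 0.43). The cause of these turns was not tested. RPL3L, at 22.8 normalized reads, was the member with the least depth, and all others averaged over 1000.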
